A study of Mus musculus with 23 samples.

Results

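Obese and lean mammary fat pad were compared in mice whose breast tumors were treated with an antibody that blocks PD-1, the inhibitory receptor of T cells. The comparison rests on 13 of the 23 libraries of the series, 8 obese and 5 lean, chosen by the antibody and weight group written in the sample descriptions. Messenger RNA of the fat beside the tumor was sequenced, and the question was how obesity changes this tissue during checkpoint blockade. Levels are given in CPM, which are the deposited estimated counts summed per gene and scaled to library size.

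All mice were female C57BL/6J. Obesity was induced with a diet that drew 60% of its energy from fat, and lean mice ate a low-fat diet with 10%. The ages of 8 to 26 weeks stand in a treatment text that names only the high-fat food, in lean samples too. Each mouse received 250000 E0771-luciferase cells, a mouse mammary carcinoma line carrying luciferase, in 25% Matrigel in mammary gland 4. Anti-PD-1 (200 µg, intraperitoneal) was first given on day 3 and then every 3 days until the mice were killed on day 21. Another 5 lean and 5 obese mice received the IgG2a isotype control on the same schedule. These 10 libraries entered the shared estimate of the spread and the test of whether the obesity effect differed between antibodies. Every mouse carried the tumor line, so no fat pad came from a tumor-free animal. The labels list each library as a sample of its own and name no animal, so p-values measure the spread between these samples.

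A fat cell that makes fat from sugar exports citrate from its mitochondria, splits it into acetyl-CoA, and builds palmitate with acetyl-CoA carboxylase and fatty acid synthase. The genes of this route are known targets of the insulin-responsive factor SREBP-1c and the sugar-responsive factor ChREBP. Growing fat cells are known to secrete more leptin, the hormone that reports fat stores to the brain. Inguinal fat of lean mice also holds heat-producing (beige) fat cells, milk ducts and a lymph node.

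Total estimated counts ran from 58307652 to 65465950 in lean and from 55138742 to 72943643 in obese libraries. All 16 adipocyte markers were detected in every library. Their summed level was 28260 to 55630 CPM in lean libraries, 8577 CPM in obese 3, 23970 CPM in obese 4, and 55240 to 78690 CPM in the other 6 obese libraries. The B cell markers, which a lymph node brings, summed to between 727 and 2827 CPM in lean 1, 3 and 5, and to 4181 and 2565 CPM in obese 3 and 4. They summed to at most 9.72 CPM in the other 8 libraries, where up to 5 of them were at 0. The skeletal muscle markers summed to 1278 and 3857 CPM in lean 1 and 2 and to between 21.8 and 115.8 CPM elsewhere. The 20 mammary epithelium markers, all detected in every library, summed to 1623 to 5810 CPM in lean and 483 to 2328 CPM in obese libraries. The labels name no batch. In bulk tissue, fewer cells of a type and less RNA per cell cannot be told apart. Below, "B cell-high" means lean 1, 3 and 5 with obese 3 and 4, and "B cell-low" means lean 2 and 4 with the other 6 obese libraries. The sets divide at a mean log2 CPM of 4 over the B cell markers. Their fits also held the IgG2a libraries on the same side, which entered the count filter, scaling and spread. These were lean IgG2a 1 to 4 and obese IgG2a 1 and 3 in the B cell-high fit. The B cell-low fit held lean IgG2a 5 and obese IgG2a 2, 4 and 5. Fits within these sets are given beside the lists, and the part of muscle and epithelium in the results was not tested.

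**Figure D1:**
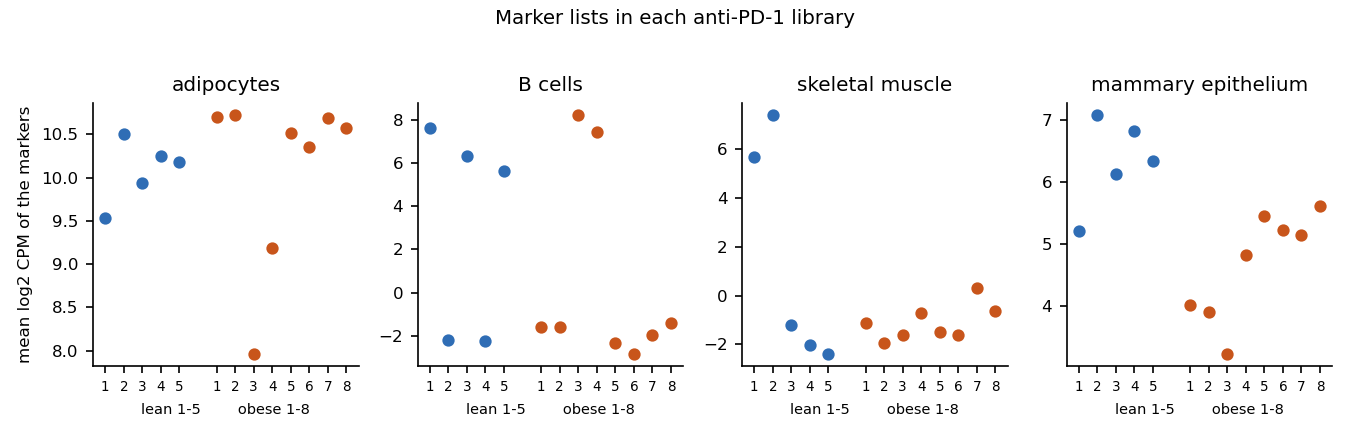
Mean log2 CPM of 4 marker lists (vertical axes) in each anti-PD-1 library (horizontal axis; blue, lean 1 to 5; orange, obese 1 to 8). B cell markers are high in lean 1, 3 and 5 and in obese 3 and 4, where adipocyte markers are the lowest of the obese group (7.96 and 9.19). Muscle markers are high in lean 1 and 2 (5.65 and 7.37).

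Of the 19882 genes with enough counts to test, 1999 (10.1%) changed between obese and lean libraries at an adjusted p under 0.05 by edgeR's quasi-likelihood test with Benjamini-Hochberg adjustment. Rises numbered 1034 (5.2%) and falls 965 (4.85%), and "rose" and "fell" below mean such calls, with fold changes and standard errors (SE) on the log2 scale. Shares of a list given below are set against these: 10.1% called, 5.2% rose and 4.85% fell. Rises were more often steep: 344 were at least 4-fold, against 215 falls. Falls more often separated the libraries. Every obese library lay below every lean one in 555 falls (57.5% of them), and above in 285 rises (27.6%). Over all tested genes 958 (4.82%) separated in this way, 3.11% below and 1.71% above. The median fold change of all tested genes was 0.08. On log2(TPM + 1), where TPM is the deposited length-scaled abundance, 88.2% of calls were rises, against 51.7% here, and the median of all genes was 0.27. Leaving out any 1 of the 13 libraries kept 906 of the 1999 calls in common. Without lean 4, 576 genes rose and 532 fell, without lean 5 621 rose, and without lean 2 641 fell.

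Both B cell-high obese libraries stood lowest in many of the rises. Obese 3 and 4 were the 2 lowest of the 8 obese libraries in 640 of the 1034 rises (61.9%), against 24.8% of the falls and 24.9% of all tested genes. They held this place in 11 of the 12 largest rises of abundant named genes, and in 3 of the 12 largest falls. Within the B cell-high set (3 lean, 2 obese) 107 genes rose and 467 fell. Within the B cell-low set (2 lean, 6 obese) 1349 rose and 1181 fell.

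**Figure D2:**
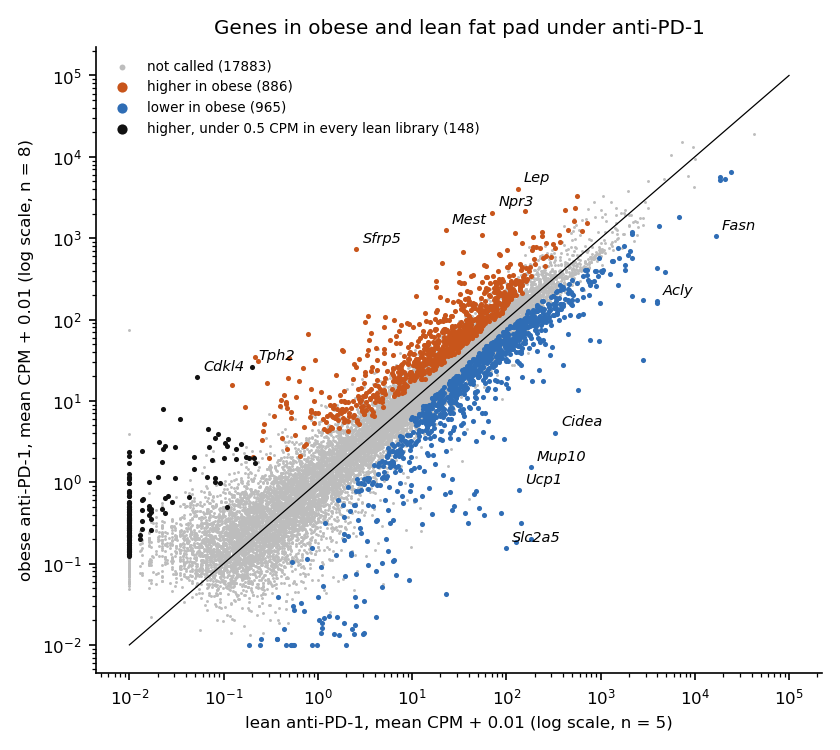
Mean CPM + 0.01 of each tested gene in lean (horizontal, n = 5) and obese (vertical, n = 8) anti-PD-1 libraries, both on log scales. Grey genes were not called, orange and black genes rose, blue genes fell, and the line marks equal levels. Black genes were under 0.5 CPM in every lean library (148 rises). Lep, Sfrp5, Mest and Npr3 stand above the line, and Acly, Cidea, Ucp1 and Slc2a5 far below it.

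Fatty acid synthesis was lower almost throughout. Of its 16 genes, all tested, 15 fell (93.8%, against 4.85% of all tested genes). In 13 every obese library lay below every lean one, as in 3.11% of all tested genes. Members of this and the other lists were chosen with earlier results of these data known, so such shares are descriptions. The median fold change was -3.33, against 0.08 over all genes. It was -4.64 in the B cell-high and -3.36 in the B cell-low set, with 15 falls in each.

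Promoter sequence is shown for 3 genes that fell without overlap and stand for 3 steps: Slc25a1 for citrate export, Fasn for palmitate synthesis and Mvd, described below, for cholesterol synthesis. Each is the RefSeq window of 250 bases before the gene's start in GRCm38.p6, read 5′ to 3′ in the gene's direction, here the minus strand. The windows lie at chr16:17928220-17928469, chr11:120824548-120824797 and chr8:122443423-122443672. Capitals mark CCAAT, the NF-Y box, found on either strand, so that it also appears as ATTGG.
Slc25a1: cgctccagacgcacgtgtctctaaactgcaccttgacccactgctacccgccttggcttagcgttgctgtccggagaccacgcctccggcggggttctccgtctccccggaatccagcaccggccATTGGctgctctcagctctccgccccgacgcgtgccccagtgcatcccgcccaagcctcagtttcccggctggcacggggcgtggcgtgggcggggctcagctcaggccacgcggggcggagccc
Fasn: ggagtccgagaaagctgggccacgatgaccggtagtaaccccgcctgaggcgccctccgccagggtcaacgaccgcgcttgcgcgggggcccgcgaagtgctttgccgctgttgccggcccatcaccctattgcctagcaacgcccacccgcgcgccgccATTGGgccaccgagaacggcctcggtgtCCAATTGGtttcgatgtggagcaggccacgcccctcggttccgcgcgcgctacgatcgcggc
Mvd: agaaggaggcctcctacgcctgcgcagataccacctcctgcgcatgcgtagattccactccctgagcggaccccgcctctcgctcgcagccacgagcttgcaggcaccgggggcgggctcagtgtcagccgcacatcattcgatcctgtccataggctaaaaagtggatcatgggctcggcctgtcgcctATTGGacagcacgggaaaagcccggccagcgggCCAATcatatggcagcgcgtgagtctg
The Slc25a1 window held 1 match, the Mvd window 2, and the Fasn window 3, a pair of which overlap. CCAAT was in 34.5% of the 16807 windows of the 13283 tested genes with a RefSeq entry, in 36.4% of windows of genes that fell and in 33% of those that rose. In the fatty acid synthesis list 7 of 14 windows held it (50%), in the cholesterol list 13 of 16 (81.2%), and in the respiratory chain list 6 of 17 (35.3%). The E-box CACGTG and TCACNCCAC, the sterol response element (SRE) that SREBP binds, were searched on both strands too. The E-box was in 7.6% of all windows, in 2 of 14 windows of fatty acid synthesis and in 3 of 16 of cholesterol synthesis. The SRE was in 1.04% of all windows, in 0 of 14 and in 1 of 16. A match shows that the letters are in the window and shows no binding.

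Slc25a1 encodes the mitochondrial citrate exporter (ENSMUSG00000003528, GRCm38 chromosome 16, 17925223 to 17928219). Lean 1 to 5 held 1321, 1702, 2202, 3406 and 2149.7 CPM and obese libraries 59.9 to 348 CPM, and it fell by 3.46 (SE 0.356, adjusted p = 2.0e-06). Acly encodes ATP citrate lyase, which splits the exported citrate (ENSMUSG00000020917, chromosome 11, 100476353 to 100528000). Its level was 2359, 3075, 4199.8, 6449 and 3715 CPM in lean 1 to 5 and 96.6 to 287 CPM in obese libraries, with a median of 168. No obese library of either gene reached the lowest lean one. Acly fell by 4.55 (SE 0.316, adjusted p = 5.5e-09).

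Fasn, the fatty acid synthase gene (ENSMUSG00000025153, chromosome 11, 120805846 to 120824547), was among the abundant messages of lean fat pad. Its level was 10656, 17622, 17115, 20870 and 16934 CPM in lean 1 to 5. Obese 1 to 8 held 990.4, 848, 163, 101, 2253, 2973, 878 and 198 CPM, so obese 3, 4 and 8 were lowest and obese 5 and 6 highest, all below the lean range. Fasn fell by 3.99 (SE 0.669, adjusted p = 6.0e-04), with fold changes of -6.76 in the B cell-high and -3.92 in the B cell-low set.

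Carboxylation, elongation and the supply of reducing power were lower as well. Acaca, acetyl-CoA carboxylase, fell by 4.04 (SE 0.467, adjusted p = 8.9e-06), with means of 2831 ± 784 CPM in lean and 172 ± 125 CPM in obese libraries (± SD, n = 5 and 8). Elovl6, which elongates palmitate, held 1097 to 5736 CPM in lean and 11.7 to 89.3 CPM in obese libraries and fell by 6.49 (SE 0.6, adjusted p = 4.1e-07). Thrsp, a lipogenic protein of fat and liver, fell by 4.63, and Me1, malic enzyme, by 3.21. Scd1, the desaturase that makes oleate, was the single member that did not pass. Its level was 25376 to 54674 CPM in lean and 2094 to 40433 CPM in obese libraries, with a fold change of -1.19 (adjusted p = 0.26).

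The factors known to drive these genes showed smaller differences. Of 11 lipogenic regulators tested 2 fell (18.2%, median -0.27), and 4 fell without obese 7. These regulators had 4 falls in the B cell-high and 3 falls in the B cell-low set. Srebf1, the SREBP-1 gene, held 383 to 630.3 CPM in lean and 113 to 299.8 CPM in obese libraries and fell by 1.16 (SE 0.217, adjusted p = 0.0016), a call that ended on log2(TPM + 1). Mlxipl, the ChREBP gene, had 139.7 ± 48.9 and 66.8 ± 41.6 CPM, and its fold change of -1.06 did not pass (adjusted p = 0.17).

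**Figure D3:**
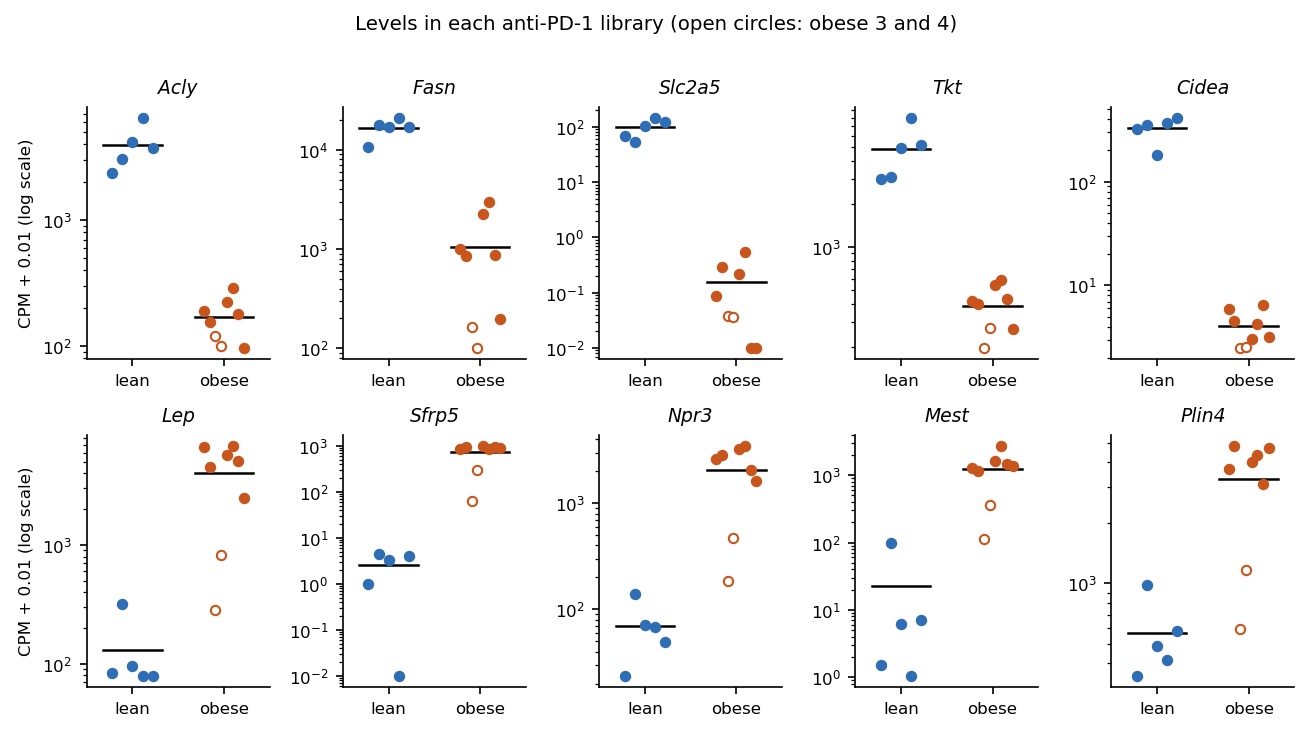
CPM + 0.01 (log scales) of 10 genes in each lean (blue, n = 5) and obese (orange, n = 8) anti-PD-1 library. Bars mark group means and open circles obese 3 and 4. The genes of the upper row fell with no overlap between groups. In the lower row obese 3 and 4 are low among the obese points, and for Lep obese 3 (286 CPM) lies below lean 2 (319 CPM), and for Plin4 obese 3 lies within the lean range.

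Sugar uptake and its conversion fell at several steps. In the list of hexose uptake and glycolysis 11 of 20 genes fell (median -0.99), 10 in each of the B cell sets. Slc2a5 carries fructose (ENSMUSG00000028976, chromosome 4, 150119283 to 150144169). Lean 1 to 5 held 67.6, 53, 103, 145 and 124 CPM of it, and the obese libraries 0 to 0.543 CPM, with obese 7 and 8 at no count. It fell by 9.43 (SE 0.794, adjusted p = 1.1e-07). Steps of glycolysis itself moved less: Pkm, pyruvate kinase, fell by 1.94 (SE 0.216, adjusted p = 5.0e-06), with means of 1798 ± 465 CPM in lean and 468 ± 58.8 CPM in obese libraries, and Gpi1, glucose phosphate isomerase, by 1.38. The single rise, of Pfkfb3, ended in 9 of the 13 fits that left out 1 library.

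In the pentose phosphate list, which supplies NADPH, 4 of 8 genes fell and 1 rose (median -0.93), with 3 falls in the B cell-high and 1 rise and 5 falls in the B cell-low set. Tkt, transketolase (ENSMUSG00000021957, chromosome 14, 30548359 to 30574720), held 2991, 3075, 4904, 7955 and 5172 CPM in lean 1 to 5 and 196 to 589 CPM in obese libraries. The gap between the groups was wide, and Tkt fell by 3.63 (SE 0.299, adjusted p = 7.3e-08). The rise, of H6pd, ended in 10 of the 13 fits that left out 1 library.

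Most listed genes of pyruvate entry, the citric acid cycle and the respiratory chain fell, by smaller amounts. Of 22 genes of pyruvate entry and the citric acid cycle 19 fell (median -1.09), 21 in the B cell-high and 18 in the B cell-low set, and 9 on log2(TPM + 1). Mpc1, a subunit of the pyruvate carrier, held 513 to 1715 CPM in lean and 71 to 206 CPM in obese libraries and fell by 2.64 (SE 0.281, adjusted p = 2.8e-06). Pdhb, a subunit of pyruvate dehydrogenase, fell by 2.38, and Pdk1, a kinase that inhibits that enzyme, by 1.78.

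All 22 nuclear-encoded respiratory chain subunits of the list fell without overlap of the libraries (median -1.33, range -4.27 to -0.82). In the B cell-high set 11 of them were called, with a median of -1.33, and in the B cell-low set 20. Uqcrc2, of complex III, held 219, 298, 275, 312 and 284 CPM in lean 1 to 5 and 103 to 157 CPM in obese libraries and fell by 1.22 (SE 0.149, adjusted p = 1.9e-05). Cyc1, cytochrome c1, fell by 1.46. Cox8b, a cytochrome oxidase subunit of brown fat and muscle, fell by 4.27 (SE 0.745, adjusted p = 8.9e-04), with 52.3 to 101 CPM in lean and 0.604 to 9.53 CPM in obese libraries.

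Fatty acid oxidation fell in 10 of 18 genes (median -0.88), 7 in the B cell-high and 12 in the B cell-low set. Acadvl, which starts the oxidation of long chains, fell by 1.74 (SE 0.226, adjusted p = 4.0e-05). The forms of carnitine palmitoyltransferase 1, the gate of fatty acids into mitochondria, moved in opposite directions. Cpt1b, the form of muscle and brown fat, held 26.3 to 70.5 CPM in lean and 3.83 to 12 CPM in obese libraries and fell by 2.63 (SE 0.359, adjusted p = 7.4e-05). Cpt1a, the form best known from liver, held 45.8 to 67.1 CPM in lean and 75.5 to 159 CPM in obese libraries and rose by 1.01 (SE 0.185, adjusted p = 0.0013), the single rise of the list.

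Genes of heat-producing fat cells fell in 9 of 16 tested members (median -1.51), 5 in the B cell-high and 9 in the B cell-low set. Cidea, a lipid droplet protein of brown and beige fat (ENSMUSG00000024526), held 324, 354, 183, 369 and 411 CPM in lean 1 to 5 and 2.49 to 6.53 CPM in obese libraries. It fell by 6.34 (SE 0.434, adjusted p = 5.5e-09). Ucp1, the uncoupling protein, held 209, 233, 32.5, 62.6 and 147 CPM in lean 1 to 5 and 5.22, 0.154, 0.171, 0.16, 0.543, 0.0775, 0 and 0.0304 CPM in obese 1 to 8. Ucp1 fell by 7.42 (SE 1.38, adjusted p = 0.0017), with a fold change of -9.67 without obese 1. The single rise, of Lhx8, a transcription factor gene of brown fat, ended without lean 4 and without lean 5.

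In the cholesterol list 10 of 20 genes fell (median -1.1), 12 in the B cell-high and 10 in the B cell-low set. Mvd, which makes isopentenyl diphosphate (ENSMUSG00000006517, chromosome 8, 122433601 to 122443422), held 36.1, 55, 52.9, 42.9 and 46.7 CPM in lean 1 to 5 and 5.63 to 15.1 CPM in obese libraries. It fell by 2.08 (SE 0.292, adjusted p = 9.5e-05). Pmvk, the kinase of the step before it, fell by 2.37, with means of 144 ± 57.8 CPM in lean and 27.9 ± 11.7 CPM in obese libraries. Branched-chain amino acid breakdown, another source of acetyl-CoA, had 1 rise and 2 falls in 18 genes (16.7% called, median -0.28). It had 1 fall without lean 2, lean 4 or lean 5. This list had 4 falls in the B cell-high and 1 rise and 3 falls in the B cell-low set. The rise was of Bcat1, the cytosolic transaminase, by 2.78 (SE 0.539, adjusted p = 0.0022).

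**Figure D4:**
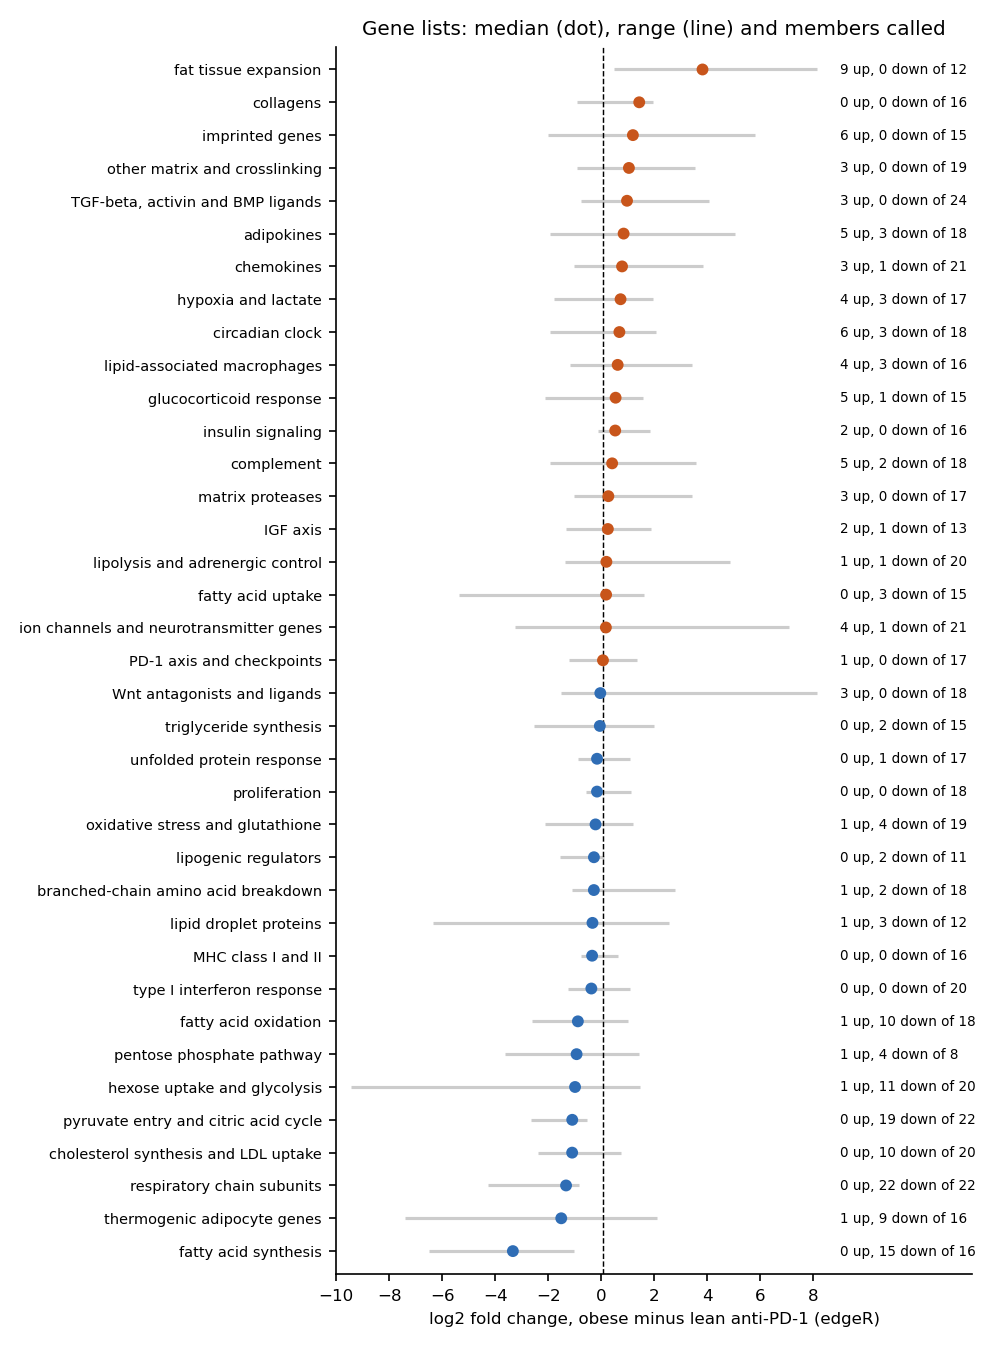
Median log2 fold change, obese against lean under anti-PD-1, of each pathway list (dots; orange above 0, blue below 0). Lines give the range of its tested members, and the numbers that rose and fell stand beside them. Lists of cell type markers are not drawn. The dashed line marks the median of all tested genes (0.08). Fatty acid synthesis (-3.33) lies far below it and fat tissue expansion (3.83) above it.

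Genes that store and release fat had 11 calls among the 62 tested entries of 4 lists (17.7%, against 10.1% of all tested genes), 9 of them falls (14.5%, against 4.85%). Triglyceride synthesis had 2 falls in 15 genes (median -0.05), lipolysis 1 rise and 1 fall in 20 (3 rises without obese 3), droplet proteins 1 rise and 3 falls in 12, and fatty acid uptake 3 falls in 15. Droplet proteins had 2 rises without obese 5 and 1 fall without lean 4, and triglyceride synthesis gained a rise without obese 3 or obese 4. In the B cell-high set 8 triglyceride synthesis genes fell (median -1.37) and 4 of lipolysis (median -0.85). In the B cell-low set these numbers were 3 and 1. Droplet proteins had 3 falls in the B cell-high and 1 rise and 3 falls in the B cell-low set, and fatty acid uptake had 2 falls in the B cell-high and 1 rise and 2 falls in the B cell-low set.

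Agpat2, an acyltransferase of the main triglyceride route, held 931 to 2105 CPM in lean and 56.7 to 458 CPM in obese libraries and fell by 2.53 (SE 0.407, adjusted p = 3.8e-04). Mogat1, of the monoacylglycerol route, fell by 2.13. Plin4, a droplet coat protein of white fat cells, rose by 2.55 (SE 0.564, adjusted p = 0.0061). Lean libraries held 347 to 986 CPM of Plin4, obese 3 and 4 held 592 and 1169.8 CPM, and the other obese libraries 3138 to 4821 CPM, so obese 3 alone lay within the lean range. Fabp3, a fatty acid binding protein of muscle and brown fat, fell by 5.35 (SE 1.02, adjusted p = 0.0019), with its highest lean levels in lean 1 and 2 (34.9 and 28 CPM), the libraries with muscle markers.

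Insulin signaling had 2 rises in 16 genes (12.5%, against 5.2% of all tested genes). These were Irs2, an insulin receptor substrate (by 1.5, SE 0.374, adjusted p = 0.013), and Grb14, an inhibitor of the receptor. The number of rises was 5 without obese 3 and 4 without obese 4. It was 1 without obese 2, obese 6 or any 1 of lean 2 to 5. The list had 1 fall in the B cell-high and 3 rises in the B cell-low set. General adipocyte markers had 1 rise and 3 falls in 16 genes (25% called, median 0.31). There were 3 rises without obese 3 and 2 without obese 4. These markers had 2 falls in the B cell-high and 2 rises in the B cell-low set. Adipoq, the adiponectin gene, held 1164 to 2518 CPM in lean and 306 to 3376 CPM in obese libraries, and its fold change of 0.21 did not pass (adjusted p = 0.85) and was -1.01 in the B cell-high set. The falls were of Adrb3, the beta-3 adrenergic receptor (by 1.35), Adig, adipogenin (by 1.49), and Cfd, adipsin (by 1.92), the last of which ended without lean 3.

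Genes linked to the expansion of fat tissue rose in 9 of 12 members (median 3.83), with 6 rises in the B cell-high and 7 in the B cell-low set. Members were chosen with earlier results of these data known, so the share that rose is a description. Sfrp5, Bmp3 and Nnat are members that other lists below count again. Lep, the leptin gene (ENSMUSG00000059201, chromosome 6, 29060220 to 29073877), held 83.3, 319, 96.3, 79.1 and 79.3 CPM in lean 1 to 5. Obese 3 and 4 held 286 and 830.0 CPM and the other obese libraries 2479.5 to 6809.8 CPM, so obese 3 alone overlapped with a lean library. Lep rose by 4.95 (SE 0.837, adjusted p = 6.5e-04), by 2.73 in the B cell-high and by 4.63 in the B cell-low set. Npr3 encodes the clearance receptor that removes natriuretic peptides, which stimulate lipolysis (ENSMUSG00000022206, chromosome 15, 11839896 to 11907287). It held 23.6, 139, 71.3, 68.2 and 49.2 CPM in lean 1 to 5 and 186 to 3461 CPM in obese libraries and rose by 4.88 (SE 0.83, adjusted p = 6.7e-04). Among adipokines 5 of 18 rose and 3 fell (44.4% called), with 1 fall without lean 3 or lean 4. They had 2 rises and 1 fall in the B cell-high and 4 rises and 3 falls in the B cell-low set.

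In the Wnt and BMP lists 6 genes rose, among them secreted inhibitors. Sfrp5, a decoy receptor for Wnt ligands (ENSMUSG00000018822, chromosome 19, 42197971 to 42202252), held 0.961, 4.38, 3.37, 0 and 4.04 CPM in lean 1 to 5. Obese 3 and 4 held 63.1 and 293 CPM and the other obese libraries 834 to 992 CPM, all above the lean range. Sfrp5 rose by 8.15 (SE 1.22, adjusted p = 1.9e-04), and by 6.03 within the B cell-high set. Of 18 Wnt genes 3 rose, the others being Wnt11 (by 1.86) and the receptor Fzd4 (by 2.56), a share of 16.7% against 5.2% of all tested genes, with 2 rises in the B cell-high and 3 rises in the B cell-low set. In the TGF-beta, activin and BMP list 3 of 24 rose (12.5%, against 5.2%), and 6 without obese 3. This list had 3 rises and 1 fall in the B cell-high and 3 rises in the B cell-low set. Bmp3, an unusual BMP that opposes others of its family, rose by 4.06 (SE 0.668, adjusted p = 5.0e-04), with 10.5 to 33.3 CPM in lean and 41.8 to 518 CPM in obese libraries, and Chrdl1, which binds BMPs, by 3.27.

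Imprinted genes, read from the copy of 1 parent, rose in 6 of 15 tested members (40%, median 1.2). In the B cell-high set 2 rose (median -0.23), and in the B cell-low set 5. Mest, a marker of fat cell growth (ENSMUSG00000051855, chromosome 6, 30723547 to 30748465), held 1.49, 97.5, 6.24, 1.04 and 7.04 CPM in lean 1 to 5 and 115 to 2714 CPM in obese libraries, with a median of 1316. Mest rose by 5.79 (SE 1.21, adjusted p = 0.0040), or by 8.31 without lean 2, its highest lean library, and its call ended in the B cell-low set (adjusted p = 0.051). The neighbours Peg3 and Zim1, both zinc finger genes on chromosome 7, rose by 4.58 (SE 0.786, adjusted p = 7.3e-04) and 4.49 (SE 0.913, adjusted p = 0.0034). Peg3 held 5.3 to 34.4 CPM in lean and 78.9 to 830.3 CPM in obese libraries. Nnat, neuronatin, rose by 4.32, Peg10 by 3.63 and Plagl1 by 3.33. Klf14, a transcription factor gene near Mest on chromosome 6, rose by 5.12 (SE 0.874, adjusted p = 7.0e-04), with means of 0.921 ± 0.775 CPM in lean and 32.2 ± 21.8 CPM in obese libraries.

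Of the 2206 tested genes under 0.5 CPM in every lean library, 148 rose (6.71%, against 5.2% of all tested genes), and 92 of these had no count in any lean library. Genes of this kind could pass the count filter through the other groups, so their number is a description. Protein-coding genes numbered 65 and antisense transcripts 20, which libraries without strand cannot tell from their partner genes. Predicted genes made up 90. An obese mean of 4 CPM was reached by 5. In 45 of the 148 every obese library exceeded every lean one, beside 27.6% of all rises and 1.71% of all tested genes. In 52 of the 148 obese 3 and 4 were the 2 lowest obese libraries, beside 61.9% of all rises and 24.9% of all tested genes. Of the 148, 58 were called whichever of the 13 libraries was left out, and 69 genes of this kind were called without lean 4.

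Cdkl4, a cyclin-dependent kinase-like gene (ENSMUSG00000033966, chromosome 17, 80523550 to 80577813), held 0, 0, 0.211, 0 and 0 CPM in lean 1 to 5. Obese 1 to 8 held 39.1, 21.2, 1.31, 4.79, 15.8, 20, 31.1 and 23.7 CPM, all above the lean libraries, with obese 3 and 4 lowest. The ratio of pooled levels was 397 (236 to 726, 95% counting interval), which covers counting error only. The fit gave a rise of 8.71 (SE 1.29, adjusted p = 1.7e-04). Without lean 3, the one lean library with counts, no lean count remained. The fitted value of 13.23 there does not measure the size of the rise. Under IgG2a Cdkl4 rose by 3.84 (adjusted p = 0.029) from a lean mean of 0.578 CPM.

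Tph2, the serotonin-synthesis enzyme of neurons (ENSMUSG00000006764, chromosome 10, 115078641 to 115185022), had the highest obese mean of these genes, 26.3 ± 24.3 CPM. It held 0, 0.31, 0.151, 0 and 0.49 CPM in lean 1 to 5 and 0.469 CPM in obese 3, so the groups overlapped there. Its pooled ratio was 126 (96.9 to 167), and it rose by 7.09 (SE 1.48, adjusted p = 0.0041). Atp1a4, a sodium pump subunit best known from sperm, held a median of 5.07 CPM in obese libraries and 0.12 CPM in lean 3 alone. It rose by 7.75 (SE 1.32, adjusted p = 7.0e-04). Without lean 3 no lean count remained, so the fitted 11.5 there does not measure the size of the rise. Gpr50, a relative of the melatonin receptors, held 1.89, 0.338, 0.0569, 0.387, 2.29, 45.6, 9.1 and 4.27 CPM in obese 1 to 8, so its obese mean rested on obese 6. It rose by 9.02 (SE 2.26, adjusted p = 0.014), or by 7.42 without obese 6, on 4 lean counts in all.

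Cpne9, which encodes a copine, a calcium-dependent membrane-binding protein, had 3 counts in the lean libraries together, and its pooled ratio was 301 (103 to 1460.2). Cacng5, a gene of the calcium channel gamma subunit family, had no lean count. It was at least 198-fold higher in obese libraries, against a floor of 3 counts over the lean group. Bpifb6, of the lipid-binding BPI family, rose by 5.56 (SE 1.37, adjusted p = 0.013), with 0.924 to 5.45 CPM in obese libraries. F10, coagulation factor X, rose by 4.35 (SE 1.13, adjusted p = 0.017) and ended without lean 4 (adjusted p = 0.052). Calls also ended for Erc2 without any 1 of lean 1 to 4, for Vsig8 without obese 6 or any 1 of lean 2 to 5, and for Aff2 in 10 of the 13 fits that left out 1 library. In the B cell-high set the calls of Tph2, Cdkl4, Atp1a4, Aff2, Bpifb6, Erc2, Cpne9, Vsig8 and F10 ended, and Gpr50 did not pass the count filter.

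**Figure D5:**
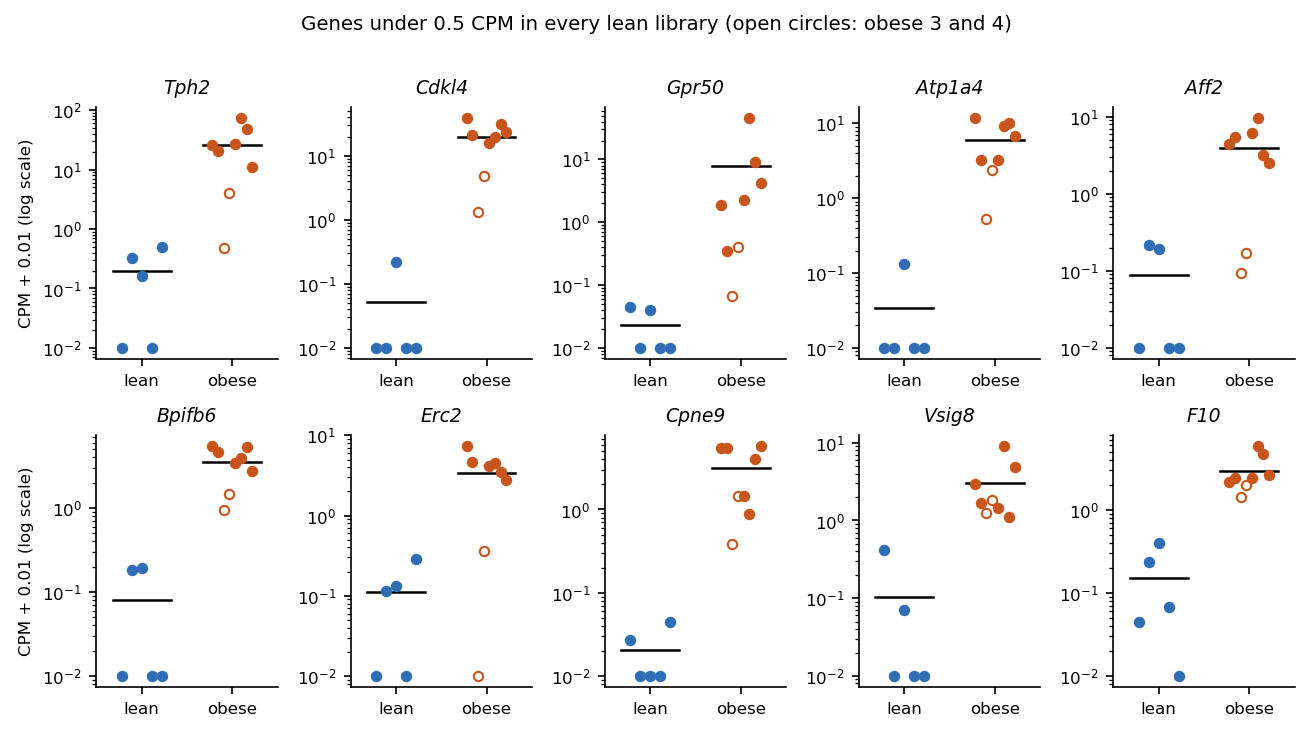
CPM + 0.01 (log scales) of the 10 named genes with the highest obese means among those under 0.5 CPM in every lean library and higher in obese. Blue points are lean (n = 5), orange points obese (n = 8), bars group means, and open circles obese 3 and 4. Points at 0.01 have no counts. For Cdkl4, all obese points lie above the lean ones.

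Other genes that rose from low lean levels included Folh1, glutamate carboxypeptidase II, by 7.35 (SE 1.3, adjusted p = 0.0010), with 0 to 0.512 CPM in lean and 1.83 to 62.1 CPM in obese libraries. Itgad, the integrin alpha D chain of macrophages, rose by 7.11 (SE 1.31, adjusted p = 0.0014), with means of 0.223 ± 0.297 CPM in lean and 31.2 ± 19.7 CPM in obese libraries. Gabrr2, a GABA receptor subunit, rose by 6.1 (SE 1.14, adjusted p = 0.0017). Obese 3 was the lowest obese library for each of these. The list of ion channels and neurotransmitter genes had 4 rises and 1 fall in 21 (23.8% called). It had 2 falls in the B cell-high and 4 rises and 1 fall in the B cell-low set. Over all libraries its fall was of P2rx5, an ATP-gated channel of brown fat cells, by 3.25 (SE 0.351, adjusted p = 3.2e-06).

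In the opposite direction, 61 of the 1667 tested genes under 0.5 CPM in every obese library fell (3.66%, against 4.85% of all tested genes), 27 of them whichever library was left out. In 20 of the 61 lean 1 and 2, the libraries with muscle markers, were the 2 highest lean libraries, as in 8.52% of the 1667. The number was 37 without obese 2 and 39 without obese 5. Mmd2 held 7.17, 2.91, 19.6, 5.39 and 78.5 CPM in lean 1 to 5 and at most 0.152 CPM in obese libraries. It fell by 9.32 (SE 1.49, adjusted p = 3.8e-04), with a fold change of -7.96 without lean 5, its highest library. Atp4b, a subunit of the gastric proton pump, held 2.21, 0.879, 2.15, 7.56 and 2.24 CPM in lean 1 to 5 and was at no count in 7 of 8 obese libraries. Kcng4, a potassium channel subunit, held 2.36 to 10.9 CPM in lean and 0 to 0.341 CPM in obese libraries and fell by 5.68 (SE 1.23, adjusted p = 0.0051).

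Major urinary protein genes, which encode pheromone carriers, fell together: 9 of 12 tested fell, each without overlap of the libraries, with a median of -5.35 over the 12. Their summed level was 110.6 to 351.7 CPM in lean and 1.08 to 4.6 CPM in obese libraries. These genes are near-identical copies, so the value of any 1 is uncertain. Mup10 held 75.7, 204, 236, 244 and 146 CPM in lean 1 to 5 and 0.174 to 2.62 CPM in obese libraries and fell by 6.88 (SE 0.969, adjusted p = 1.2e-04). Under IgG2a none of the 12 was called. Their summed level there was 140.6 to 445.8 CPM in lean libraries, 1.27 to 16.5 CPM in 4 obese libraries and 304.8 CPM in obese IgG2a 5. That library stands apart for liver genes, and their part in the Mup values was not tested. Its mean log2 CPM over 12 hepatocyte markers was 8.96, against at most 2.41 in the other 22 libraries. Under anti-PD-1 1 of these 12 markers fell (8.33%, against 4.85% of all tested genes, median -1.48), and 2 fell in the B cell-high set. The markers summed to 418.5 to 1535 CPM in lean and 37.4 to 371 CPM in obese anti-PD-1 libraries. H2-Q10, a secreted class I molecule, held 382, 554, 623, 706 and 622 CPM in lean 1 to 5 and 2.97 to 21.8 CPM in obese libraries and fell by 5.39 (SE 0.466, adjusted p = 1.4e-07). Parm1, an androgen-regulated membrane protein gene, fell by 3.81 (SE 0.241, adjusted p = 2.4e-09), with 149 to 345 CPM in lean and 12.9 to 22.9 CPM in obese libraries. Pth1r, the parathyroid hormone receptor, fell by 3.23, with means of 224 ± 129 CPM in lean and 23.8 ± 12.2 CPM in obese libraries.

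Skeletal muscle genes had the largest fitted falls and the least support across libraries. Of 15 tested 9 fell (median -6.00). The list had no call in the B cell-high and 13 falls in the B cell-low set. None fell without lean 2, and without lean 1 and 2 together the median was 1.07 with no call. The number was 5 without lean 1, and 3, 4, 5 and 4 without obese 1, 2, 5 and 6. Myh4, a fast muscle myosin, held 205, 717, 0, 0 and 0 CPM in lean 1 to 5 and at most 0.85 CPM in obese libraries. Ckm, muscle creatine kinase, held 171, 461, 0.0753, 0 and 0 CPM in lean 1 to 5. For both the lean signal came from lean 1 and 2.

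Mammary epithelium genes fell in 15 of 20 members (median -1.46), in 2 in the B cell-high and 14 in the B cell-low set. The number was 8 without lean 2, 8 without lean 4 and 8 without lean 1 and 2 together. Krt19, a keratin of ducts, held 407, 1298, 482, 976 and 573 CPM in lean 1 to 5 and 75.1 to 434 CPM in obese libraries and fell by 1.91 (SE 0.336, adjusted p = 8.9e-04). The groups overlapped. Krt7 fell by 1.6 and Krt18 by 1.78.

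Clock genes changed in 6 rises and 3 falls of 18 (50% called, median 0.69). The rises were 3 without lean 2, lean 4 or lean 5. The list had 1 fall in the B cell-high and 3 rises and 2 falls in the B cell-low set. The labels give no hour of collection, so its part in these values was not tested. Per3, a repressor of the clock, held 9.58, 11.6, 10.3, 14.2 and 10.5 CPM in lean 1 to 5 and 20.2 to 95.2 CPM in obese libraries, without overlap, and rose by 2.06 (SE 0.44, adjusted p = 0.0047). Per2 rose by 1.69.

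Glucocorticoid response genes rose in 5 of 15 members and fell in 1 (40% called), with 3 rises without lean 4. This list had 1 rise and 1 fall in the B cell-high and 6 rises and 1 fall in the B cell-low set. Hsd11b1, the enzyme that regenerates active glucocorticoid, was the fall, by 2.12 (SE 0.304, adjusted p = 1.2e-04), with 150.1 to 294 CPM in lean and 24.6 to 95.6 CPM in obese libraries. Tsc22d3, a classic glucocorticoid target (GILZ), rose by 1.35 (SE 0.319, adjusted p = 0.0098), and Mt2, a metallothionein, by 1.57. Oxidative stress genes had 1 rise (5.26%, against 5.2% of all tested genes) and 4 falls (21.1%, against 4.85%) in 19. They had 3 falls in the B cell-high and 4 falls in the B cell-low set. Gsta4, which clears lipid peroxidation products, held 30.5 to 54.2 CPM in lean and 5.39 to 15.1 CPM in obese libraries and fell by 2.14 (SE 0.272, adjusted p = 3.1e-05). Sod1, superoxide dismutase, fell by 1.28, and Hmox1, heme oxygenase, rose by 1.21. Hypoxia genes had 4 rises and 3 falls in 17 (41.2% called). There were 2 rises without obese 2, obese 8, lean 1, lean 3 or lean 4. Among the falls were Egln3, an oxygen sensor (by 1.77), and Ldha, lactate dehydrogenase (by 1.11). The hypoxia list had 1 rise and 2 falls in the B cell-high and 3 rises and 3 falls in the B cell-low set.

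Collagens had no call in 16 genes by edgeR (median 1.44), although 11 had an unadjusted p under 0.05 and DESeq2 called 8 and limma-voom 12. There were 5 rises without obese 3, 4 without obese 4, 1 without lean 2 and 1 fall without obese 6. Their median was -0.70 in the B cell-high and 1.28 in the B cell-low set, where 5 rose. Other matrix genes rose in 3 of 19 (15.8%, against 5.2% of all tested genes), 7 without obese 3 and 6 without obese 4. They had 1 rise and 1 fall in the B cell-high and 5 rises in the B cell-low set. Thbs2, thrombospondin 2, held 16.3, 88.4, 22.1, 13.3 and 19.1 CPM in lean 1 to 5 and 67.3 to 662 CPM in obese libraries and rose by 3.55 (SE 0.7, adjusted p = 0.0025). Among proteases 3 of 17 rose (17.6%, against 5.2%), among them Adamts5, an aggrecanase, by 2.95 (SE 0.605, adjusted p = 0.0034). The proteases had 1 fall in the B cell-high and 4 rises and 1 fall in the B cell-low set.

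Lipid-associated macrophage genes split, with 4 rises and 3 falls in 16 (43.8% called, no fall without lean 4). The numbers were 2 falls in the B cell-high and 4 rises and 2 falls in the B cell-low set, with medians of -0.003 and 0.53. The falls were of Ctsd, Plin2 and Fabp5. The part of other cells in the rises or the falls was not tested. Of 16 general macrophage markers 1 rose and 1 fell (12.5% called, against 10.1% of all tested genes, median 0.14). Trem2, the lipid receptor of these macrophages, held 0.978, 3, 0.753, 0.729 and 1.26 CPM in lean 1 to 5 and 2.17 to 15.6 CPM in obese libraries and rose by 2.74 (SE 0.538, adjusted p = 0.0024). Mmp12, macrophage elastase, held 1.17 to 6.13 CPM in lean and 7.11 to 107 CPM in obese libraries and rose by 3.43 (SE 0.581, adjusted p = 6.5e-04). Gpnmb rose by 2.29.

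Chemokines rose in 3 of 21 members (14.3%, against 5.2% of all tested genes) and fell in 1 (4.76%, against 4.85%). There were 5 rises without obese 2, obese 3 or obese 6. Chemokines had 7 rises in the B cell-high and 1 rise and 1 fall in the B cell-low set. Ccl2, which attracts monocytes, held 0.566 to 1.7 CPM in lean and 2.38 to 58.2 CPM in obese libraries, the highest in obese 7. It rose by 3.59 (SE 0.768, adjusted p = 0.0047), or by 2.63 without obese 7, and Ccl7 by 2.99, or by 2.18 without obese 7. Complement genes had 5 rises and 2 falls in 18 (38.9% called). There was 1 fall in 10 of the 13 fits that left out 1 library. The list had 1 rise in the B cell-high and 4 rises in the B cell-low set. C6, of the terminal pathway, held 5.15, 1.22, 4.43, 0 and 2.82 CPM in lean 1 to 5 and 9.92 to 59.4 CPM in obese libraries and rose by 3.6 (SE 0.74, adjusted p = 0.0035). Lbp, which carries bacterial lipopolysaccharide, rose by 4.14 (SE 0.748, adjusted p = 0.0012), with means of 11 ± 6.68 CPM in lean and 194 ± 111 CPM in obese libraries. Of 14 neutrophil markers 1 rose (7.14%, against 5.2% of all tested genes), with 4 rises in the B cell-high and no call in the B cell-low set. This was S100a8, an alarmin, which rose by 4.26 (SE 1.01, adjusted p = 0.0098), with 0 to 0.862 CPM in lean and 1.77 to 20 CPM in obese libraries.

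Of 17 genes of the PD-1 axis and other checkpoints 1 rose, a share of 5.88% against 5.2% of all tested genes. The list had 2 rises in the B cell-high and 1 rise and 1 fall in the B cell-low set. Over all libraries the rise was of Vsir, which encodes VISTA, by 1.15 (SE 0.238, adjusted p = 0.0037). Vsir held 107 to 135 CPM in lean and 115 to 401 CPM in obese libraries. Its fold change was 0.17 in the B cell-high set (adjusted p = 0.73). Pdcd1, the gene of PD-1 itself, held 8.63, 0.448, 4.73, 0 and 3.64 CPM in lean 1 to 5 and 0.0616, 0.307, 9.45, 5.66, 0, 0, 0 and 0.0608 CPM in obese 1 to 8. It was over 3 CPM in the B cell-high libraries alone, and its fold change of -0.84 did not pass (adjusted p = 0.82). Cd274, the ligand PD-L1, held 19.9 to 27.4 CPM in lean and 23.6 to 51 CPM in obese libraries, with a fold change of 0.40 that did not pass (adjusted p = 0.19). Lists of cytotoxic lymphocytes, interferon response, MHC, T cells, B cells, lymph node stroma, progenitors, endothelium, epidermis, Schwann cells, mast cells and proliferation had no call by edgeR. With the collagens these 13 lists held 181 tested genes, of which 30 had an unadjusted p under 0.05, DESeq2 called 13 and limma-voom 54. The interferon list (median -0.37) had 7 falls in the B cell-low set and 2 falls without obese 3, lean 1 or lean 3. In the B cell-low set MHC genes had 2 rises and 4 falls, mast cells 2 falls, epidermis 1 fall and progenitors 1 rise. In the B cell-high set lymph node stroma had 2 rises and progenitors 1 rise and 1 fall. Cytotoxic lymphocytes, T cells, B cells, endothelium, Schwann cells and proliferation had no call in either set.

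The obesity effect was also fitted under IgG2a, where 1152 genes (5.79%) were called, 532 of them rises (2.68%) and 620 falls (3.12%). The comparisons share no library but share the estimate of the spread. Genes that rose in both numbered 136, which is 13.2% of the rises here and 25.6% of those under IgG2a. Genes that fell in both numbered 436, 45.2% and 70.3% of the falls. The test of the difference between the antibodies called 0 genes by edgeR, with 1449 (7.29%) at an unadjusted p under 0.05, while DESeq2 called 50 and limma-voom 629. The edgeR number at an unadjusted p under 0.05 depended on single IgG2a libraries. It was 969 of 20315 tested genes without obese IgG2a 5, the library that stands apart for liver genes. Without obese IgG2a 4 it was 2673 of 20367.

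The genes nearest to a call are given as values. Spsb1, an adaptor of a ubiquitin ligase, held 19.9, 14.7, 20.8, 10.9 and 16 CPM in lean 1 to 5 and 32.7 to 65.7 CPM in obese libraries and rose by 1.68 under anti-PD-1, against a fold change of 0.42 under IgG2a (difference 1.25, SE 0.339, adjusted p = 0.40). Impa2, an inositol monophosphatase, fell by 1.87 against -0.15 (difference -1.73, adjusted p = 0.40). Fkbp4, a partner of the glucocorticoid receptor, fell by 1.16 against 0.09 (difference -1.25, adjusted p = 0.40). Il1rap, a subunit of the interleukin 1 receptor, rose under IgG2a (by 3.21), with a fold change of -0.17 here (adjusted p of the difference = 0.40). For fatty acid synthesis the list median was -4.14 under IgG2a with 14 falls, beside -3.33 here. For fat tissue expansion it was 2.71 with 7 rises, beside 3.83.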

How the data were processed

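Poly(A) RNA of tumor-adjacent fat pad was sequenced from libraries that keep no strand, per the labels' protocols. The authors deposited 1 table per library with estimated counts and TPM of 115088 transcripts. The quantifier was not given in the sources used here. The submitters' processing notes name GRCm38, edgeR and limma. Estimated counts were summed over the transcripts of each of 47311 genes and rounded. edgeR 4.0.16 (R 4.3.3) fitted all 23 libraries with TMM scaling, a mean per group, its filter at 10 counts and the robust quasi-likelihood test. The common biological coefficient of variation was 0.805. Benjamini-Hochberg adjustment ran over all 19882 tested genes. At total counts of 55138742 to 72943643 in the 13 libraries, counting error limits genes with few counts. On simulated counts the script recovered 46 of 50 genes at a log2 change of -3, 26 at -1.5, 25 at 1.5 and 45 at 3. The changed genes were drawn from those averaging over 1 CPM, and no difference in tissue mixture between libraries was simulated. These numbers therefore do not cover genes near zero or libraries that differ in B cell or muscle markers.

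Members and lists were chosen with earlier results of these data known. Genes were named by size of change (12 rises and 12 falls among genes averaging 4 CPM or more), by p within each list (3), by obese level among those near zero in lean (10) and by p of the difference between antibodies (5 in each direction). Predicted genes are not named, and not every gene that these rules pick is reported here. Slc25a1, Fasn, Acaca, Thrsp, Me1, Scd1, Mlxipl, Pfkfb3, H6pd, Cox8b, Cpt1a, Lhx8, Cfd, Peg10, Plagl1, Klf14, Cacng5, Atp4b, Kcng4, H2-Q10, Parm1, Pth1r, Hmox1, Ctsd, Lbp and the Mup family were chosen after their values were seen. Alternative fits used DESeq2 1.42.0, limma 3.58.1 (voom, and TPM with a pseudocount of 1), other filters, B cell subsets and left-out libraries.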

Additional observations from a re-analysis of the deposited data

Results flagged for a closer look

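In the lean or obese libraries of 16 of 232 gene and group pairs examined, 1 library lay far from the others on log2(CPM + 0.5) by Dixon's gap rule. Chance sets apart about 1 in 20 groups. In lean, lean 2 was highest for Lep (319.3 CPM) and Thbs2 (88.4 CPM), lean 3 for Cdkl4 (0.211 CPM) and Atp1a4 (0.12 CPM), and lean 1 for Vsig8 (0.412 CPM) and Tsc22d3 (143 CPM). Lean 1 was lowest for Gsta4 (30.5 CPM) and Sod1 (382 CPM). In obese, obese 3 was lowest for Sfrp5 (63.1 CPM), Acadvl (77.6 CPM), Grb14 (7.25 CPM) and Adipoq (306.2 CPM). Obese 8 was lowest for Gpi1 (227.9 CPM) and obese 5 for Il1rap (2.35 CPM). Obese 1 was highest for Ucp1 (5.22 CPM) and obese 8 for Atp4b (0.0304 CPM), each other obese library being at 0 for the latter. Obese 3 is the library with the lowest adipocyte markers and the highest B cell markers of the obese group, and the part of either in these values was not tested.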

How the results depend on the processing

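The main counts were 1999 genes changed, 1034 higher, 965 lower, 148 higher from near zero in lean, 61 lower to near zero in obese, 840 called without overlap, and 0 that differed between antibodies. The DESeq2 test gave 3122 changed, 1854 higher, 287 from near zero and 50 that differed. Voom gave 6369 changed, 3423 higher, 2946 lower, 428 and 159 near zero, and 629 that differed. Log2(TPM + 1) gave 3576 changed, 3155 higher and 421 lower. A filter of 1 CPM in 5 libraries gave 46 and 24 near zero, and the 13 libraries alone 21 near zero in obese. The B cell-high set gave 574 changed, 107 higher, 467 lower, and 8 and 34 near zero. The B cell-low set gave 266 from near zero, 2433 without overlap and 2 that differed. The B cell covariate gave 1563 lower. Without lean 1 and 2 together there were 914 changed, 345 higher, 569 lower, and 46 and 37 near zero. Leaving out 1 library gave 1108 to 2432 changed, 576 to 1438 higher, 532 to 1032 lower, 69 to 184 and 37 to 74 near zero, 681 to 1066 without overlap and 0 to 1 that differed (1 without obese IgG2a 4). The cause was not tested. Over all calls, 87 of the 1034 rises and 3 falls had the opposite sign in the B cell-high set, 62 falls on log2(TPM + 1), 17 without lean 1 and 2 and 1 by voom. Among the genes named, reversed fold changes were Pfkfb3 at -0.17, Adipoq at -1.01, Pdcd1 at 0.48 and Il1rap at 0.10 in the B cell-high set, Adipoq at -0.27 with the B cell covariate, Il1rap at 0.21 on log2(TPM + 1), and Myh4 at 6.6 and Ckm at 2.57 without lean 1 and 2. Myh4 had no count in lean 3 to 5, so its value of 6.6 does not measure the size of a change. Lean and obese libraries came from differently fed mice, so no paired analysis was made. The labels give no replicate numbers, and libraries are numbered here in series order within each group.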

Other observations

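Shares called are set beside 10.1% of all tested genes. Insulin-like growth factor genes had 2 rises and 1 fall in 13 (23.1% called, 1 rise without lean 2). Igfbp3, a binding protein of the growth factors, held 20.8 to 76.3 CPM in lean and 60.2 to 361 CPM in obese libraries and rose by 1.88 (SE 0.455, adjusted p = 0.011, edgeR). Of mural cell genes 2 of 12 rose (16.7% called), Rgs5, a pericyte regulator of G proteins (by 1.2, ending without lean 2), and Abcc9, a potassium channel subunit (by 1.18), and 2 fell without obese 6. Of 10 genes taken to mark tumor cells 1 rose, Vim, vimentin (by 1.09), and 2 fell (30% called). Both falls were of keratins that the mammary epithelium list counts too. The growth factor list had no call in the B cell-high and 2 rises and 1 fall in the B cell-low set. Mural cells had 1 fall in the B cell-high and 2 rises and 3 falls in the B cell-low set, and the tumor cell list had no call in the B cell-high and 2 falls in the B cell-low set.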
